A study of Homo sapiens with 6 samples.

Results

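The genes described here encode the nuclear-encoded subunits of the mitochondrial respiratory chain and ATP synthase in DLD-1 cells. DLD-1 is an established line grown from a human colorectal cancer. They were chosen by symbol, as protein-coding genes whose names start with NDUFA, NDUFB, NDUFC, NDUFS, NDUFV, UQCR, COX4I, COX5, COX6, COX7, COX8, ATP5F1, ATP5M or ATP5P, together with SDHA, SDHB, SDHC and SDHD, and without assembly factors, pseudogenes and antisense genes. This gave 84 of the 27264 gene rows, of which 78 had enough reads to be tested and 6 did not. Complex I is represented by 37 genes, complex II by 4, complex III by 9, complex IV by 16 and ATP synthase, also called complex V, by 18. The lung, muscle and testis isoform genes COX4I2, COX6A2 and COX7B2 and the readthrough genes ATP5MF-PTCD1 and NDUFC2-KCTD14 also meet the symbol rule. They have no gene row and were not analysed here.

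The respiratory chain sits in the inner mitochondrial membrane. Complex I takes electrons from NADH and complex II from succinate, complex III passes them from ubiquinol to cytochrome c, and complex IV hands them to oxygen. Complexes I, III and IV pump protons, and ATP synthase uses the returning protons to make ATP. A small set of core membrane subunits of complexes I, III, IV and V is encoded in mitochondrial DNA, and the table held 0 genes of the mitochondrial chromosome, so the values below cover the nuclear side of these complexes.

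The study concerns an epithelial-to-mesenchymal transition driven by ZEB2, a zinc finger repressor of epithelial genes. Messenger RNA of 6 libraries was counted. The pDOX group holds 1 library each of the DLD-1 clones WT2, WT5 and WT37 with the genotype ZEB2 WT grown with DOX, and its cells are labelled mesenchymal. The mDOX group holds 1 library each of the same 3 clones, also ZEB2 WT, grown without DOX, and its cells are labelled epithelial. The sample names carry the tag TR21_ZEB2 in both groups. DOX is the usual short form of doxycycline, which serves to switch on inducible constructs and is also known as an inhibitor of the mitochondrial ribosome. There are 0 libraries with DOX from cells without ZEB2 WT, so effects of DOX alone and of ZEB2 cannot be told apart. The clones are named as the replicates in the design text. In the DOX fit without a clone term, p-values measure the spread between these 3 clones. In fits with both clone and DOX terms, clone means are taken out. Their p-values measure how far the DOX change differs between the clones.

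Reads in genes numbered 5440093 to 7164426 per library, and the 84 genes took 2.25%, 2.06% and 2.29% of them in pDOX cells of WT2, WT5 and WT37, against 2.19%, 2.001% and 2.28% in mDOX cells. ZEB2 had 20, 9 and 22 reads in pDOX libraries of WT2, WT5 and WT37, against 9, 5 and 3 in mDOX libraries. CPM scales the counts of a library to a common total of reads in genes. Summed over 10 markers of colon epithelium, the level was 4459 to 5680 CPM in pDOX cells, against 6677 to 8135 CPM in mDOX cells. CDX1 was at 0 reads in all 6 libraries. KRT18, which held the most of these reads, had 12886, 13850 and 9619 in pDOX libraries of WT2, WT5 and WT37, against 18011, 15562 and 17944 in mDOX libraries. CDX2 went the other way, with 4294, 3824 and 6089 reads against 2491, 2732 and 4307. The 8 markers of the mesenchymal state summed to 10.6 to 23.6 CPM in pDOX cells, against 11.6 to 16.3 CPM in mDOX cells, with TWIST1 at 0. FN1, which held the most of these reads, had 25, 58 and 82 in pDOX libraries, against 47, 66 and 98 in mDOX libraries. ZEB1 had 4, 9 and 11 reads against 1, 1 and 1, and ZEB2, VIM and SPARC also had more reads with DOX in every clone. CDH2 and SNAI2 went both ways between clones. The 9 markers of blood, endothelial, stromal and neural cells summed to 6.26 to 11.9 CPM in pDOX cells, against 4.78 to 10.9 CPM in mDOX cells, with PECAM1 at 0, and CD14 had 28, 69 and 60 of these reads in pDOX libraries of WT2, WT5 and WT37, against 22, 50 and 61 in mDOX libraries. The part of these marker levels in the values below was not tested. In bulk samples, fewer cells of a type and less RNA per cell cannot be told apart.

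QuantSeq libraries count the 3' ends of messenger RNAs, so CPM can be compared between genes without a correction for length. Respiratory chain genes were abundant. The median over the 84 genes was 196 CPM as a mean of the 6 libraries, and over the 78 tested genes it was 208 CPM, against 23.6 CPM over all 11732 genes tested. Above 1000 CPM were 2 genes, 58 lay between 100 and 1000 CPM, 15 between 10 and 100 CPM and 9 under 10 CPM. The 2 at the top both belong to ATP synthase. ATP5MG, the membrane subunit g, averaged 1533 ± 241 CPM in pDOX cells and 1565 ± 248 CPM in mDOX cells (SD, n = 3 each). ATP5MC3, 1 of the 3 genes for the proton-carrying c-ring, averaged 1325 ± 38.3 CPM in pDOX cells and 1369 ± 165 CPM in mDOX cells (SD, n = 3 each).

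**Figure D1:**
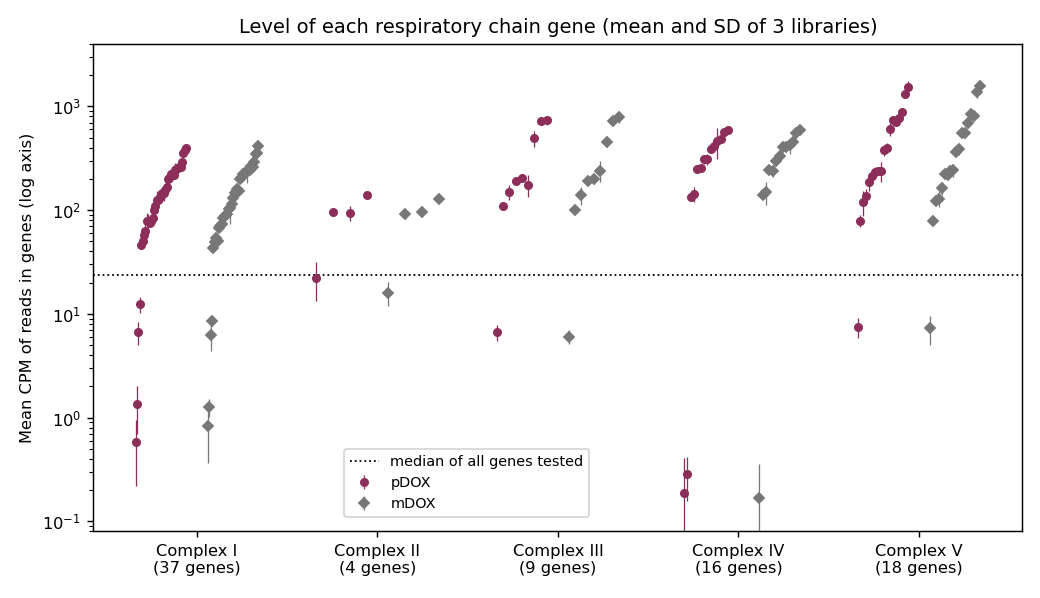
Mean level of each gene in CPM of reads in genes on a log axis, by complex, with pDOX (circles) left of mDOX (diamonds) and bars for the SD of 3 libraries (cut at the axis). Group means under 0.1 CPM are not drawn. Most genes lie between 10 and 1000 CPM, above the median of 23.6 CPM of all genes tested.

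Within complex I, the highest gene was NDUFAB1, the mitochondrial acyl carrier protein, with a mean of 402.5 CPM over the 6 libraries, and the lowest was NDUFV2, a core subunit with an iron-sulfur cluster, at 0.709 CPM. In complex II, SDHC, a membrane anchor, was highest with 134 CPM and SDHD, the other membrane anchor, lowest with 19.2 CPM. SDHA, the flavoprotein that oxidises succinate, averaged 93.8 ± 14.9 CPM in pDOX cells and 96.0 ± 8.91 CPM in mDOX cells (SD, n = 3 each), and SDHB, the iron-sulfur subunit, 96.2 ± 7.52 CPM in pDOX cells and 91.6 ± 3.47 CPM in mDOX cells. In complex III, UQCRQ, a small accessory subunit, led with 765 CPM, and UQCRHL, a near-copy of UQCRH, was lowest with 6.34 CPM. COX4I1, the widely expressed isoform of the regulatory subunit COX4, led complex IV with 595 CPM. In complex V the lowest was ATP5MGL, a near-copy of ATP5MG, with 7.39 CPM.

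The isoform genes of complex IV lay at very different levels. The widely expressed forms COX6A1, COX6B1, COX7A2 and COX8A averaged 138, 399, 412 and 467 CPM over the 6 libraries. COX7A1, the heart and muscle form, had 1, 2 and 3 reads in pDOX libraries of WT2, WT5 and WT37, against 2, 0 and 1 in mDOX libraries. COX8C, known from testis, had 0, 3 and 1 reads in pDOX libraries, against 0, 0 and 2 in mDOX libraries. COX6B2, also a testis form, had 0, 0 and 2 reads in pDOX libraries, against 0, 1 and 0 in mDOX libraries. All 3 isoforms were therefore at the limit of counting in both groups. NDUFA4, a complex IV subunit despite its name, averaged 248 ± 16.3 CPM in pDOX cells and 246 ± 2.70 CPM in mDOX cells (SD, n = 3 each), while its relative NDUFA4L2, known to be induced by hypoxia, had 0 reads in every library, which allows up to 0.419 to 0.551 CPM per library (3 counts, counting error only). COX7A2L, which helps to join complexes III and IV into supercomplexes, averaged 310 ± 32.1 CPM in pDOX cells and 296 ± 16.3 CPM in mDOX cells.

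NDUFV2 and NDUFA7, which every complex I contains, were also too low to test. NDUFV2 had 3, 2 and 7 reads in pDOX libraries of WT2, WT5 and WT37, against 5, 2 and 9 in mDOX libraries, and NDUFA7 had 6, 15 and 7 in pDOX libraries, against 8, 8 and 7 in mDOX libraries. Of the windows of 50 bases in the last 300 bases of the annotated NDUFV2 transcript, 78.9% also occur in another annotated gene, and for NDUFA7 this share is 49.0%. Reads that fit several places or several genes are tallied apart in the table, so the levels of genes with shared ends are uncertain. The share was 78.1% for the core subunit NDUFS7 (mean 6.47 CPM) and 67.7% for NDUFA13 (mean 10.4 CPM), whereas 59 of the 84 genes share none. ATP5F1E shared 100% with TUBB1, which lies on the opposite strand, and still reached 702 CPM. The 65 pseudogene rows of these families, kept out of the 84, held 3168 reads in all, equal to 0.371% of the reads of the 84 genes.

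With DOX, transcripts of the respiratory chain differed little as a group. In edgeR's quasi-likelihood test without a clone term, 0 of the 78 tested genes passed a Benjamini-Hochberg adjusted p of 0.05, as did 0 of all 11732 genes (0%). DESeq2 called 0 of the 78, against 0.486% of all genes. At an unadjusted p under 0.05 there were 3 of 78, against 6.04% of all genes. The median log2 fold change, pDOX over mDOX, was -0.0056 over the 78 genes and 0.0071 over all genes, with 38 above 0 and 40 below. All but 1 of the 78 lay within 0.5 of 0 on the log2 scale, while 9.81% of all genes lay outside that range. The 78 genes are more abundant, with a median of 208 CPM against 23.6 CPM. Their median SE was 0.13 against 0.20 for all genes, and no comparison matched for level was made. With the clone as a block, which compares pDOX with mDOX inside each clone, 1 of the 78 passed, against 1.3% of all genes (0.639% in the lower direction).

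**Figure D2:**
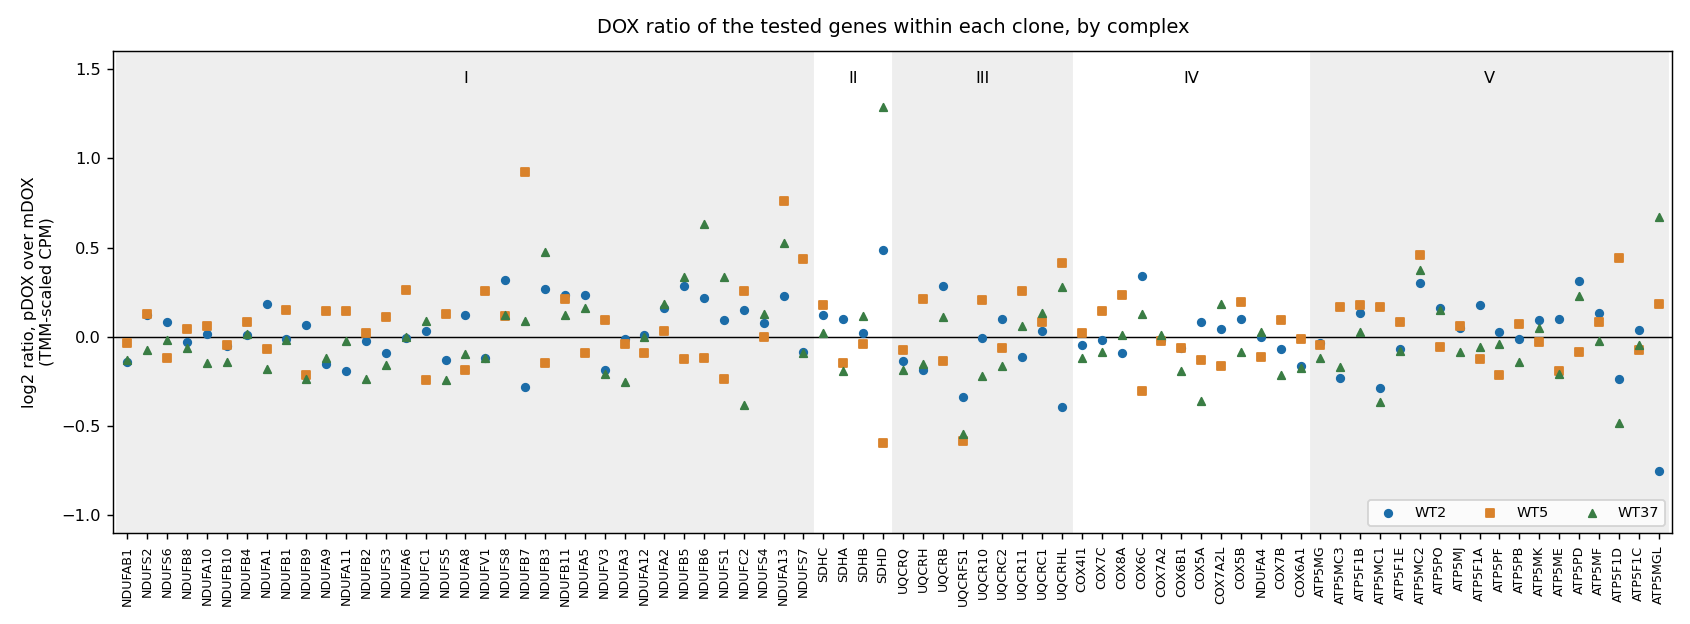
Log2 ratio of pDOX over mDOX within each clone for the 78 tested genes, on TMM-scaled CPM, grouped by complex I to V and ordered by level within a complex. UQCRFS1 lies below 0 and ATP5MC2 and NDUFA13 lie above 0 in all 3 clones, while SDHD reaches 1.29 in WT37 and -0.60 in WT5.

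The gene that passed was UQCRFS1 (ENSG00000169021, GRCh38 chromosome 19, 29205321 to 29213541, minus strand), the Rieske iron-sulfur protein, which takes electrons from ubiquinol at the centre of complex III. Its level was 176, 134 and 220 CPM in pDOX cells of WT2, WT5 and WT37, against 217, 202 and 304 CPM in mDOX cells. Each clone was lower with DOX, but the groups overlapped. In CPM without TMM scaling, WT37 with DOX was above WT5 and WT2 without it. The groups also overlapped on TMM-scaled CPM. On TMM-scaled CPM clones WT2, WT5 and WT37 had log2 ratios of -0.34, -0.59 and -0.55. UQCRFS1 fell by 0.49 (SE 0.093) on the log2 scale in the blocked edgeR fit (adjusted p = 0.0305). Without the block the change was -0.49 ± 0.18 SE with edgeR's adjusted p = 0.700, and the exact permutation test over the 6 libraries (two-sided) gave p = 0.3, where 0.1 is the smallest possible p. The call was lost in the blocked fit when WT2 or WT37 was left out. The 8 tested genes within 2 Mb of UQCRFS1 had a median blocked log2 fold change of -0.028.

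The other complex III genes did not pass. The core proteins UQCRC1 and UQCRC2 had blocked log2 fold changes of 0.082 and -0.041, the hinge protein UQCRH -0.043, the accessory subunit UQCRB 0.087 and UQCRQ -0.13. UQCRQ was below its mDOX level in all 3 clones. Summed over its 9 genes, complex III reached 2808, 2572 and 3013 CPM in pDOX cells, against 2855, 2562 and 3131 CPM in mDOX cells, and the ranges overlapped.

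ATP5MC2 (ENSG00000135390, chromosome 12, 53632726 to 53677408, minus strand) encodes the c-ring subunit of ATP synthase, as do ATP5MC1 and ATP5MC3; the 3 genes differ in the import signal and give the same mature protein. ATP5MC2 had 791, 712 and 718 CPM in pDOX cells of WT2, WT5 and WT37, against 626, 518 and 525 CPM in mDOX cells. All 3 pDOX libraries were above all 3 mDOX libraries. The blocked log2 fold change was 0.38 ± 0.085 SE with edgeR's adjusted p = 0.0540, just above the threshold, and ATP5MC2 passed with the block in DESeq2, which called 1.41% of all genes there, and in limma-voom. Without the block it was 0.37 ± 0.14 SE with edgeR's adjusted p = 0.693, and the exact permutation p was 0.1, the smallest possible. ATP5MC1 was at 686, 859 and 771 CPM in pDOX cells, against 816, 765 and 939 CPM in mDOX cells, with a blocked log2 fold change of -0.16 ± 0.11 SE (edgeR's adjusted p = 0.564). That value was -0.096 without WT2, -0.32 without WT5 (edgeR's adjusted p = 0.0403) and -0.058 without WT37. As a share of the reads of the 3 c-ring genes, ATP5MC2 made up 28.6%, 24.6% and 25.2% in pDOX cells, against 21.5%, 21.0% and 18.001% in mDOX cells. The summed c-ring level overlapped between the groups, with 2765, 2891 and 2853 CPM in pDOX cells against 2916, 2462 and 2918 CPM in mDOX cells. Of the last 300 bases of ATP5MC2, 9.56% of the windows of 50 bases also occur in its pseudogene ATP5MC2P4.

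**Figure D3:**
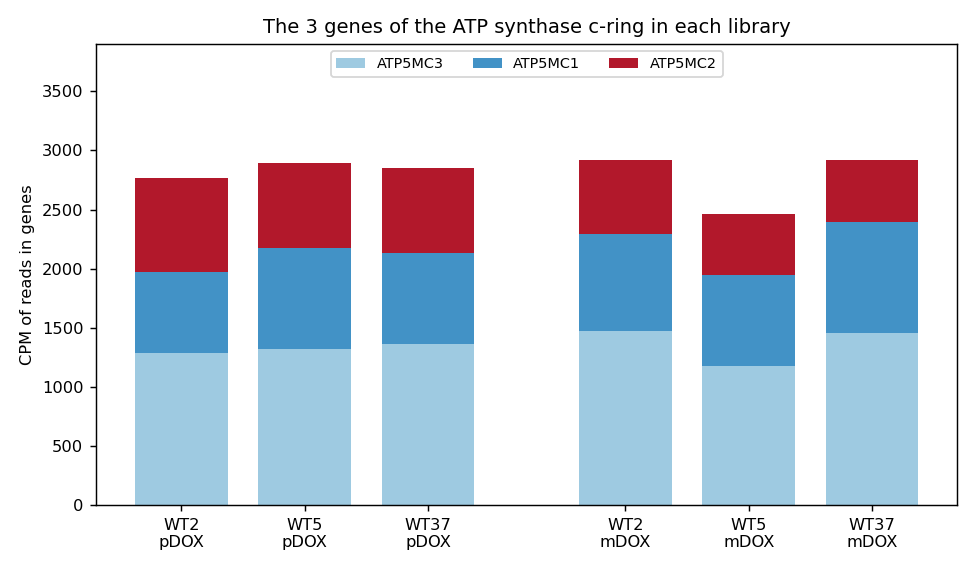
Level of the c-ring genes ATP5MC3, ATP5MC1 and ATP5MC2 stacked in each library, in CPM of reads in genes, with the 3 pDOX libraries on the left and the 3 mDOX libraries on the right. The ATP5MC2 part is 712 to 791 CPM in pDOX cells and 518 to 626 CPM in mDOX cells.

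The promoter windows of UQCRFS1 and ATP5MC2, the genes with the smallest blocked p, are shown because ZEB proteins are known to bind the E-box CACCTG. The windows cover 250 bases before to 50 after a RefSeq start site (GRCh38.p14), 5′ to 3′ on the strand of the gene, and capitals mark the E-box, here read as CAGGTG on the gene's strand. For ATP5MC2 the first of 3 listed windows is shown.
UQCRFS1 (chr19:29213102-29213401, minus strand): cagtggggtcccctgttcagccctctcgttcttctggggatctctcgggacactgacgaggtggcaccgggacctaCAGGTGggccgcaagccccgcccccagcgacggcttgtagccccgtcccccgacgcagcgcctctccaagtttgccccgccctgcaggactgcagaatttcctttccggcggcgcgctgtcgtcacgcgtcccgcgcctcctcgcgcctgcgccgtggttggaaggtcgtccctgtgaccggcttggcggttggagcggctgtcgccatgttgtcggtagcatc
ATP5MC2 (chr12:53676034-53676333, minus strand): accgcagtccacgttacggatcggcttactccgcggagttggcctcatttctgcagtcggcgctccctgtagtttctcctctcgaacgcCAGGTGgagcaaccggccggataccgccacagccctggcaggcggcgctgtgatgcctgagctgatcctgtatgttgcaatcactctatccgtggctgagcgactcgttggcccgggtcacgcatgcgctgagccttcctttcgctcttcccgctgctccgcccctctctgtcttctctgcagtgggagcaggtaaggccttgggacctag
Each printed window holds 1 E-box, 174 bases before the start site in UQCRFS1 and 161 bases before it in ATP5MC2. UQCRFS1 fell in the blocked fit and ATP5MC2 had a log2 fold change above 0, so the letters are found beside values of either sign. Of the 84 genes, 67 had a window, and on either strand CACCTG occurred in 12 of these (17.9%), against 20.6% of the windows of 27305 genes (1 window a gene). Letters known from factors of mitochondrial genes were counted in the same way, with no test. TGCGCA, the core of the NRF1 site, occurred in 29.9% of the respiratory windows against 8.42% of all windows. CCGGAAG, a site of ETS factors such as GABPA, occurred in 29.9% against 10.7%, and ATGGCGG, found in YY1 sites, in 28.4% against 5.72%. Both strands were searched for all 4 motifs, and of these only the E-box occurs in the printed windows, where it overlaps no other. In the ATP5MC2 windows not printed, window 2 holds TGCGCA 59 bases before its start site and no E-box. Window 3 holds an E-box 207 bases before its start site. A match is a run of letters and does not show binding.

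NDUFA13, a complex I accessory subunit also known as GRIM-19, had the largest log2 fold change above 0. Its level was 9.94, 13.1 and 14.2 CPM in pDOX cells of WT2, WT5 and WT37, against 8.27, 7.76 and 9.35 CPM in mDOX cells. The groups did not overlap, but only 45 to 101 reads per library were counted. The blocked log2 fold change was 0.51 ± 0.19 SE with edgeR's adjusted p = 0.278, and the exact permutation p was 0.1, the smallest possible. On TMM-scaled CPM, all pDOX libraries lay above all mDOX libraries for ATP5MC2, NDUFA13 and ATP5F1B, the catalytic beta subunit of ATP synthase, which is 3.85% of the 78 genes against 5.30% of all genes. All pDOX libraries lay below for COX6A1, NDUFA3 and NDUFAB1, also 3.85%, against 6.09% of all genes. Both shares are below those of all genes. Above its mDOX level in all 3 clones were 9 of the 78 genes (11.5%, against 17.7% of all genes), and below it 8 (10.3%, against 17.4%).

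The 4 genes of complex II did not pass with DOX. SDHD had 22.5, 13.4 and 31.3 CPM in pDOX cells of WT2, WT5 and WT37, against 15.6, 20.3 and 12.1 CPM in mDOX cells. WT2 and WT37 were higher with DOX and WT5 was lower. Ratios in opposite directions in 2 clones, with both exact counting intervals clear of 0, were found for 22 of the 78 genes (8.46% of all genes), and for 6 when over 0.25 each way (4.18% of all genes). The blocked log2 fold change of 0.41 ± 0.34 SE did not pass (edgeR's adjusted p = 0.667), and it was -0.053 without WT37 and 0.91 without WT5 (edgeR's adjusted p = 0.0212). SDHA, SDHB and SDHC had blocked log2 fold changes of -0.080, 0.032 and 0.11, none past the threshold. COX5A, a complex IV subunit, had 347, 306 and 275 CPM in pDOX cells, against 319, 335 and 335 CPM in mDOX cells. Its blocked log2 fold change was -0.14 ± 0.10 SE (edgeR's adjusted p = 0.610), or -0.24 without WT2 and -0.022 without WT37.

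Summed levels of the complexes were compared with no test. Complex I summed to 5735 ± 188 CPM in pDOX cells and 5583 ± 179 CPM in mDOX cells (SD, n = 3 each). Its 7 core subunits, which carry the flavin and the iron-sulfur clusters, summed to 912 ± 17.8 CPM in pDOX cells and 862 ± 20.6 CPM in mDOX cells. Complex II summed to 353 ± 28.9 CPM in pDOX cells and 331 ± 9.41 CPM in mDOX cells, and complex IV to 4319 ± 268 CPM in pDOX cells and 4244 ± 203 CPM in mDOX cells. ATP synthase summed to 8804 ± 547 CPM in pDOX cells and 8564 ± 755 CPM in mDOX cells. Within WT2, WT5 and WT37 the sums were higher with DOX by 0.050, 0.039 and 0.027 on the log2 scale for complex I and by 0.031, 0.085 and 0.0095 for ATP synthase. These sums are in CPM, where the median log2 ratio of all genes was up to 0.074 between the libraries of a clone.

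Between clones, with DOX as a covariate, edgeR's test of the clone term called 5 of the 78 genes (NDUFB1, NDUFS6, UQCRFS1, COX6C and COX7B), a share near the 6.84% of all genes. Between single pairs of clones, 2 were lower and 0 higher in WT37 than in WT2, where 5.83% of all genes were called (3.15% higher, 2.68% lower). In WT37 6 were higher and 0 lower than in WT5, where 5.92% were called (3.17% higher, 2.74% lower). In WT5 0 were higher and 1 lower than in WT2, where 1.02% were called (0.682% higher, 0.341% lower). Each clone has 2 libraries, and the fit assumes that DOX acts alike in the clones. In a fit without the DOX term the clone term called 0 of the 78.

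**Figure D4:**
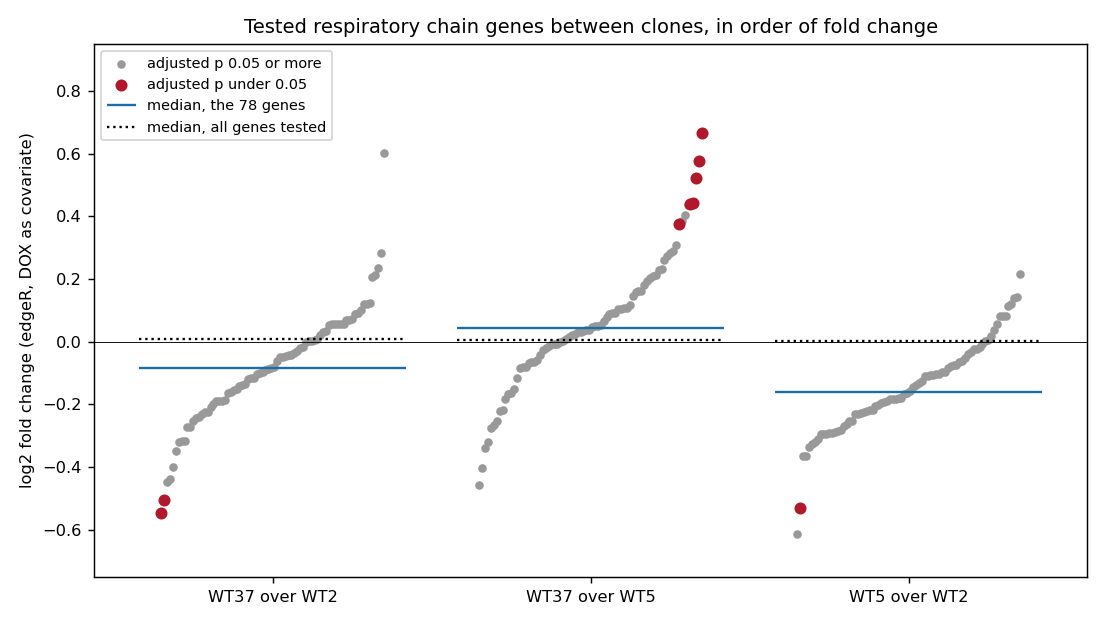
Log2 fold changes of the 78 tested genes in the 3 clone contrasts (edgeR, DOX as covariate), sorted within each contrast; red points have an adjusted p under 0.05. The median of the 78 genes is -0.083 for WT37 over WT2, 0.043 for WT37 over WT5 and -0.16 for WT5 over WT2, against 0.0075, 0.0050 and 0.0033 for all genes.

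Most respiratory chain transcripts were at a lower level in WT5 than in WT2. Of the 78 genes, 65 were below 0 and 13 above, with a median log2 fold change of -0.16 against 0.0033 for all genes. On TMM-scaled CPM, both WT5 libraries lay below both WT2 libraries for 43 genes (55.1%), against 19.0% of all genes, and above for 0 genes, against 19.6%. The direction did not rest on the scaling, since the median of the 78 genes in CPM was -0.13 between the pDOX libraries and -0.083 between the mDOX libraries. By complex, genes below 0 numbered 26 of 35 in complex I, 3 of 4 in complex II, 8 of 9 in complex III, 12 of 12 in complex IV and 16 of 18 in ATP synthase. Most single changes were small, and 19 of the 78 had an unadjusted p under 0.05, against 11.4% of all genes.

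NDUFB1, a small accessory subunit of complex I (ENSG00000183648, chromosome 14, 92116122 to 92121917), was the gene that passed between these clones. It had 197 and 177 CPM in WT5 with and without DOX, against 264 and 260 CPM in WT2, and the log2 fold change was -0.53 ± 0.11 SE (edgeR's adjusted p = 0.0424). That call was lost without either WT2 library, the WT5 library without DOX or the WT37 library with DOX, and in limma-voom (adjusted p = 0.0566). It was also lost with a filter of 5 CPM in every library, without robust moderation and in the fit with no DOX term. The WT37 libraries, at 274 CPM with and 263 CPM without DOX, were also above WT5, at 197 CPM and 177 CPM (0.44 ± 0.11 SE, edgeR's adjusted p = 0.0364). WT5 was thus the low clone for this gene. COX6C, a complex IV subunit encoded on chromosome 8, had 286 and 353 CPM in WT5 with and without DOX, against 539 and 415 CPM in WT2. This difference of -0.61 ± 0.14 SE did not pass (edgeR's adjusted p = 0.0771), although it did in DESeq2, which called 0.759% of all genes. It was -0.40 and -0.83 without the WT2 libraries with and without DOX, of which the second passed, and -0.35 and -0.88 without those of WT5, of which the second passed. UQCR11, a small subunit of complex III, had 129 and 108 CPM in WT5 against 144 and 152 CPM in WT2 and did not pass (-0.37 ± 0.12 SE, edgeR's adjusted p = 0.256). It was -0.23 without the WT2 or the WT5 library without DOX. WT37 had 575 and 498 CPM of COX6C with and without DOX, against 286 and 353 CPM in WT5, and was higher by 0.66 ± 0.14 SE (edgeR's adjusted p = 0.0209), or by 0.40 without the WT5 library with DOX, where the call was lost.

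The other genes higher in WT37 than in WT5 came from complexes III, IV and V. UQCRFS1, at 220 and 304 CPM in WT37 with and without DOX against 134 and 202 CPM in WT5, differed by 0.58 ± 0.11 SE (edgeR's adjusted p = 0.0143). The 8 tested genes within 2 Mb of UQCRFS1 had a median of 0.14 in this contrast, with 6 above 0 and 2 below. The median of the tested genes of its chromosome was -0.066. The part of the region in this difference was not tested. COX7B, an X-linked complex IV subunit, had 170 and 187 CPM in WT37 against 122 and 114 CPM in WT5 (0.52 ± 0.12 SE, edgeR's adjusted p = 0.0259). ATP5PF, also called coupling factor 6, had 287 and 280 CPM in WT37 against 184 and 214 CPM in WT5 (0.44 ± 0.11 SE, edgeR's adjusted p = 0.0393). ATP5MG had 1778 and 1829 CPM in WT37 against 1296 and 1339 CPM in WT5 (0.38 ± 0.10 SE, edgeR's adjusted p = 0.0460). In this contrast DESeq2 called 319 genes in all and 3 of the 78, COX6C, COX7B and UQCRFS1. NDUFB1, ATP5PF and ATP5MG did not pass there. For UQCRFS1, COX7B, ATP5PF and ATP5MG, both WT37 libraries lay above both WT5 libraries on TMM-scaled CPM. Over the 78 genes this held for 28.2%, against 24.6% of all genes, and the opposite for 14.1%, against 23.6%. The median log2 fold change of the 78 genes, 0.043, was 0.0043 and 0.0077 without the WT5 or the WT37 library without DOX, and 0.087 and 0.084 without those with DOX. All 6 calls between WT37 and WT5 were lost when either WT37 library was left out. ATP5F1D, the delta subunit of the ATP synthase head, had the lowest log2 fold change, -0.46, and did not pass (edgeR's adjusted p = 0.210). Its value was -0.044 without the WT5 library with DOX, -0.16 and -0.75 without the WT37 libraries with and without DOX, and -0.85 without the WT5 library without DOX (edgeR's adjusted p = 0.00432). NDUFS5, an accessory subunit of complex I, had 124 and 139 CPM in WT37 with and without DOX against 171 and 157 CPM in WT5 and did not pass (-0.40 ± 0.12 SE, edgeR's adjusted p = 0.0723). Without the WT5 library with DOX it was -0.25, and without the other WT5 library -0.56 (edgeR's adjusted p = 0.0146).

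**Figure D5:**
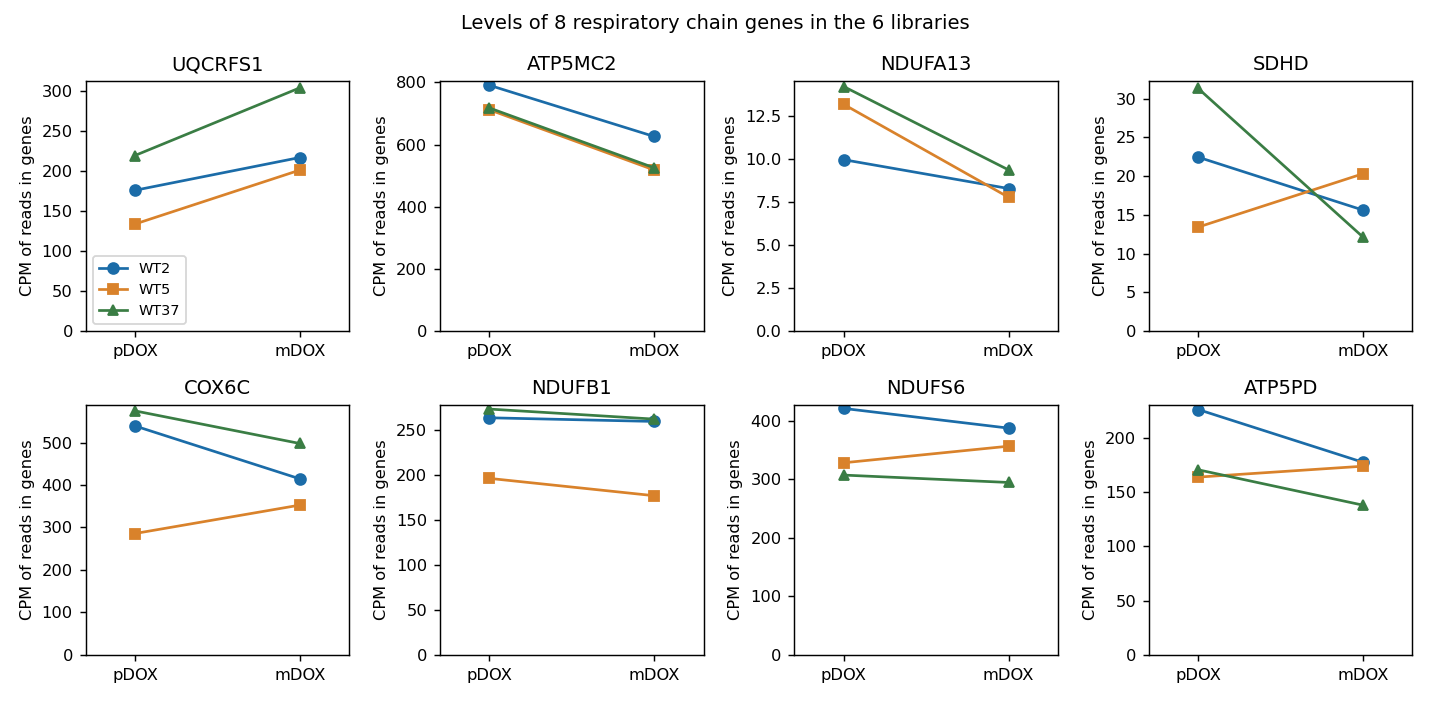
CPM of reads in genes of UQCRFS1, ATP5MC2, NDUFA13, SDHD, COX6C, NDUFB1, NDUFS6 and ATP5PD in the 6 libraries, with pDOX left of mDOX and a line joining the libraries of 1 clone. WT5 is lowest for NDUFB1 (177 to 197 CPM) and WT37 is lowest for NDUFS6 (295 to 307 CPM).

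Between WT37 and WT2, NDUFS6, a zinc-binding accessory subunit of complex I (ENSG00000145494, chromosome 5, 1801400 to 1816605), had 307 and 295 CPM in WT37 with and without DOX, against 421 and 388 CPM in WT2. The difference was -0.54 ± 0.11 SE (edgeR's adjusted p = 0.0138). ATP5PD, a peripheral stalk subunit of ATP synthase, had 170 and 138 CPM in WT37, against 226 and 177 CPM in WT2 (-0.51 ± 0.12 SE, edgeR's adjusted p = 0.0342). In this contrast DESeq2 called 326 genes in all and 1 of the 78, NDUFS6, so ATP5PD did not pass there. NDUFV1, the core subunit that binds NADH, had 115 and 118 CPM in WT37 against 142 and 151 CPM in WT2 and did not pass (-0.45 ± 0.13 SE, edgeR's adjusted p = 0.0604). NDUFS7 had the highest log2 fold change, 0.60, from 28 to 60 reads a library, and did not pass either (edgeR's adjusted p = 0.237). Both WT37 libraries lay below both WT2 libraries for 37.2% of the 78 genes, against 23.9% of all genes, and above for 8.97%, against 25.2%. The sign of the median over the 78 genes depends on the scaling. On TMM-scaled CPM it was -0.10 between the pDOX libraries and -0.038 between the mDOX libraries. In CPM it was 0.039 and 0.061, beside all-gene medians of 0.14 and 0.099. On both scales, 24 of the 78 genes lay above the all-gene median between the pDOX libraries and 29 between the mDOX libraries. Both edgeR calls, of NDUFS6 and ATP5PD, were lost when either library of WT37 or of WT2 was left out.

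Genes linked to the respiratory chain outside the 84 were tested singly and counted by list. With DOX, 0 of 51 assembly factors, 0 of 19 genes of the tricarboxylic acid cycle, 0 of 16 regulators of mitochondrial biogenesis, 0 of 74 mitochondrial ribosome genes and 0 of 12 other respiratory genes passed, with or without the block. Their median log2 fold changes without the block were -0.040, -0.036, 0.0020, -0.082 and 0.067. Between WT37 and WT2, SURF1 and NDUFAF8, assembly factors of complexes IV and I, were lower by edgeR (-0.56 ± 0.14 SE, adjusted p = 0.0357, and -0.49 ± 0.13 SE, adjusted p = 0.0476). SURF1 had 62.6 and 68.8 CPM in WT37 with and without DOX against 87.1 and 91.7 CPM in WT2, and it was also lower in WT37 than in WT5 (-0.61 ± 0.14 SE, adjusted p = 0.0254). Of the mitochondrial ribosome genes, MRPS27 was higher and MRPL55 lower in WT37 than in WT5 (0.51 ± 0.14 SE, edgeR's adjusted p = 0.0483, and -0.54 ± 0.14 SE, edgeR's adjusted p = 0.0472). GPD2, the mitochondrial glycerol phosphate dehydrogenase, and 5 mitochondrial ribosome genes, MRPS16 among them (-0.64 ± 0.12 SE), were lower in WT37 than in WT2 too, and 0 of these lists had a higher gene in that contrast. Between WT5 and WT2, 0 genes of the 5 lists passed. Median log2 fold changes there were -0.023 for assembly factors, -0.11 for the tricarboxylic acid cycle, 0.079 for biogenesis regulators, -0.021 for the mitochondrial ribosome and -0.16 for the other respiratory genes, against 0.0033 for all genes. Genes below 0 numbered 27 of 51, 16 of 19, 6 of 16, 41 of 74 and 8 of 12 in the same order.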

How the data were processed

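The authors deposited raw counts of reads per gene for 6 libraries, made with Lexogen's QuantSeq 3' FWD kit per the labels' protocols. The submitters' processing notes name GRCh38 and DESeq2; the aligner, counter and use of strand were not given in the sources used. The 4 rows that name no gene held unmapped (4.29% to 5.25%), multimapping (11.8% to 16.0%), unannotated (8.72% to 11.7%) and ambiguous (6.85% to 7.40%) reads and stayed out of library sizes. Symbols came from an Ensembl identifier table and GENCODE 29. With R 4.3.3, edgeR 4.0.16 tested 11732 genes left by filterByExpr, with TMM scaling, a robust quasi-likelihood fit and Benjamini-Hochberg adjustment over all of them (threshold 0.05). Standard errors are |log2 fold change| over the root of F and are approximate. DESeq2 1.42.0 and limma 3.58.1 (voom) were alternatives. The DOX fit had no clone term, and the clone fits had DOX as a covariate. Across genes, deviations from group means correlated between the libraries of a clone (r of 0.49 in WT2, 0.28 in WT5 and 0.54 in WT37), so the clones pair the libraries, and blocked values are given too. Within-clone ratios use TMM-scaled CPM, in place of the planned CPM with a pseudocount of 0.5. The code was tested on simulated data. Intervals cover counting error only.

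Genes named are those past the threshold (for DOX also with the block), the 3 largest log2 fold changes each way per contrast, the highest and lowest gene of each complex, the tissue isoforms and the SDH genes, and at most 3 called genes of each context list. Genes named outside this rule (ATP5MC3, ATP5F1B, ATP5F1E, UQCRC1, UQCRC2, UQCRH, UQCRB, NDUFA3, NDUFA7, NDUFB3, NDUFB7 and NDUFC2) were chosen after their values were seen. The genes and lists were chosen with earlier results of these data known. The fit without robust moderation was added after seeing the data. Promoter windows are from RefSeq (GRCh38.p14). The list of other cell types was planned with another marker, which is not reported here.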

Additional observations from a re-analysis of the deposited data

Results flagged for a closer look

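For 6 of the 78 tested genes, the DOX ratio pointed in opposite directions in 2 clones, by over 0.25 on the log2 scale each way and with both exact 95% counting intervals clear of 0, against 4.18% of all genes tested. Each clone has 1 library per condition, so the difference between clones was not tested, and the intervals compare libraries, not clones. With intervals clear of 0 alone, 22 of 78 genes met the description, against 8.46% of all genes, whose median level is 23.6 CPM beside 208 CPM for the 78.

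On TMM-scaled CPM, the log2 ratio of pDOX over mDOX of SDHD was 1.29 in WT37 and -0.60 in WT5. NDUFB7, an accessory subunit of complex I, was at 0.93 in WT5 and -0.28 in WT2. ATP5F1D was at 0.44 in WT5 and -0.48 in WT37. ATP5MGL was at 0.67 in WT37 and -0.75 in WT2, from 37 to 65 reads a library. COX6C was at 0.34 in WT2 and -0.30 in WT5. NDUFC2, an accessory subunit of complex I, was at 0.26 in WT5 and -0.38 in WT37. For NDUFB7, WT5 had 148 CPM with DOX against 77.8 CPM without it, the largest within-clone change among the complex I genes.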

How the results depend on the processing

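Causes of changes between settings were not tested. Of the 78 genes, 0 passed with DOX without the replicate block under every scaling, filter and tool tried and without any clone or library. With the replicate block, 1 passed (UQCRFS1), also with RLE size factors, the stricter filter (5 CPM in every library) and the non-robust fit, and 2 passed (with ATP5MC2) with no low-count filter, DESeq2 or limma-voom. Leaving out a clone with the block gave 0 to 5, with 5 without WT5 (ATP5MC1, ATP5MC2, NDUFB3, SDHD and UQCRFS1). The share of all genes called in these settings is not given, so these counts are not read as particular to the 78. Between clones, no low-count filter gave 5 (WT37 against WT2), 10 (WT37 against WT5), 2 (WT5 against WT2) and 11 (clone term), with 8 of the 10 higher, while calls over all genes numbered 1244, 1294, 346 and 1783 against 684, 694, 120 and 802 with the filter. DESeq2 gave 1, 3, 2 and 4, where calls over all genes numbered 326, 319, 89 and 441. The fit with no DOX term gave 1, 0, 0 and 0 in the same order. For WT5 against WT2, the stricter filter, limma-voom and the non-robust fit gave 0. Leaving out 1 library gave 0 to 11 for WT37 against WT2, 0 to 11 for WT37 against WT5, 0 to 2 for WT5 against WT2 and 0 to 14 for the clone term. The highest counts came without a WT5 library, and the clone term fell to 0 without the WT37 library with DOX. Such fits assume that the lone library varies like the others. For these fits too, the share of all genes called is not given, and the counts are not read as particular to the 78. With DOX, SDHD ranged from -0.020 (without WT37) to 0.893 (without WT5), and with the block from -0.053 to 0.91 without the same clones. For WT5 over WT2, NDUFA13 ranged from -0.083 (no WT2 library with DOX; -0.062 when that of WT5 was dropped) to 0.33, NDUFV3 from -0.012 to 0.28 and NDUFS7 from -0.073 to 0.46, the low ends of both without the WT5 library with DOX. NDUFS7 and NDUFA13 rest on 28 to 60 and 45 to 101 reads a library, which limits their precision.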

Other observations

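Of the 65 pseudogene rows of these families, only the 5 with the most reads were looked up in the fits, and these 5 had been tested. ATP5F1EP2, a processed copy of the ATP synthase epsilon subunit gene, held 2079 of the 3168 reads of the 65 rows. It had 381, 411 and 428 reads in pDOX libraries of WT2, WT5 and WT37, against 297, 270 and 292 in mDOX libraries, and its log2 fold change did not pass in the blocked edgeR fit (0.33 ± 0.12 SE, adjusted p = 0.232). COX6CP1, a copy of COX6C, had 52, 32 and 65 reads in pDOX libraries, against 21, 25 and 29 in mDOX libraries (0.80 ± 0.27 SE, adjusted p = 0.214 in the same fit). Both rows were above their mDOX counts in all 3 clones, and the parent genes ATP5F1E and COX6C had blocked log2 fold changes of -0.020 and 0.059.

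Reads on nuclear copies of mitochondrial genes stand for sequences that are near-identical to mitochondrial transcripts. Of the 64 such rows, 8 were tested. MTATP6P1, a copy of the ATP6 gene of ATP synthase, had 170, 191 and 84.1 CPM in pDOX cells of WT2, WT5 and WT37, against 83.1, 71.5 and 35.2 CPM in mDOX cells, and rose by 1.20 ± 0.11 SE in the blocked edgeR fit (adjusted p = 0.000613). Without the block it did not pass (1.20 ± 0.42 SE, edgeR's adjusted p = 0.693). It was lower in WT37 than in WT2 (-1.24 ± 0.13 SE, adjusted p = 0.000355) and than in WT5 (-1.19 ± 0.13 SE, adjusted p = 0.000638). Over the 8 tested rows, the median blocked log2 fold change with DOX was 0.18, with 7 above 0 and 1 below. Only 1 of the 8, MTATP6P1, was called higher with DOX, against 0.656% of all genes. In WT37 against WT2 and against WT5, 8 were below 0, with medians of -1.11 and -1.16. Called lower there were 3 and 6 of the 8, against 2.68% and 2.74% of all genes. The share of multimapping reads was also lower in WT37, at 12.0% with and 11.8% without DOX, against 14.6% and 15.4% in WT2 and 16.0% and 14.7% in WT5. Its part in these values was not tested.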
